A study of Homo sapiens with 6 samples.

Results

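The integrated stress response was followed through 10 genes in OVCAR3 cells: the transcription factors ATF4, ATF3, ATF5, DDIT3 and CEBPG, the regulators TRIB3, SESN2 and CHAC1, and the metabolic enzymes ASNS and PCK2. They are 10 of the 19973 genes in the deposited table and 10 of the 12874 genes with enough reads to be tested. The genes were taken by symbol, and they were chosen from measured values of the shNUF2 and shNC comparison itself, so their own differences are given below as a description, without a test. OVCAR3 is an established human cell line of high-grade serous ovarian carcinoma. RNA-seq was performed on 3 libraries of cells carrying shNC, a control hairpin, and 3 libraries of cells carrying shNUF2, a hairpin against the kinetochore gene NUF2, to find genes that differ after NUF2 knockdown. Both groups were transfected with the same type of hairpin vector and selected with puromycin to give stable lines, so all 6 libraries share the vector and the drug selection. A single shNUF2 hairpin was used and no separate lines or cultures are named, so the p-values below measure only the spread between libraries, which may be technical, and the hairpin and the line cannot be told apart.

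In the integrated stress response, kinases that sense amino acid shortage, unfolded protein, double-stranded RNA or heme shortage phosphorylate eIF2α. General translation then falls, while the mRNA of ATF4 is translated more, because short upstream reading frames in its leader steer ribosomes to the coding start. ATF4 protein, with partners such as CEBPG, binds C/EBP-ATF response elements and induces genes of amino acid supply, such as ASNS, together with feedback and death regulators such as TRIB3, CHAC1 and DDIT3. RNA-seq reads the mRNA of these genes and neither eIF2α phosphorylation nor ATF4 protein.

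A C/EBP-ATF response element was searched as TGATGNAA on both strands of the 250 bases before each annotated start in the RefSeq promoter table (GRCh38.p14), in which all 10 genes were found with 19 start sites. The element occurred before 4 of these 19 starts, in 4 of the 10 genes, against 3.14% of all 35116 windows and 2.47% of the 10297 tested genes with an entry in the table. The 4 stretches of 30 bases are shown because they hold the sequence through which ATF4 is known to act. They are written along the strand of the gene, with the element in capitals; for CHAC1 it lies on the opposite strand.
ASNS: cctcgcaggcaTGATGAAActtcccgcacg
CHAC1: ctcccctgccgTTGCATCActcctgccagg
CEBPG: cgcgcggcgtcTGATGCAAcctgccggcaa
ATF3: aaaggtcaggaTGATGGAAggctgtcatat
The element of ASNS began 68 bases before the start on the minus strand of chromosome 7, at chr7:97872469-97872476. That of CHAC1 lay at chr15:40953262-40953269, 209 bases before the start, and that of CEBPG at chr19:33374071-33374078, 42 bases before the start. The element of ATF3 lay at chr1:212565216-212565223, 191 bases before the start. The stretches of ASNS and CHAC1 also fall within exons of longer transcripts annotated in GENCODE release 29, whereas those of CEBPG and ATF3 do not overlap an annotated exon of a coding transcript of their gene. In the other 6 genes these letters were not found in the window. The cyclic AMP response element TGACGTCA was found before 0 of the 19 starts, against 1.65% of all windows. The match is a description of the sequence, and binding was not measured.

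The leaders carry the other sequence feature of the response. In one reference transcript per gene, 8 of the 10 genes had at least 1 ATG in the 5′ leader, against 51.2% of the 12812 tested genes with such a transcript. In 4 of the 10 genes an upstream reading frame ran past the coding start in another frame, against 16.3% of the tested genes. These 4 were ATF4, ATF3, ATF5 and DDIT3, all of them transcription factors. The leader of ATF4 was 882 bases long, against a median of 189 over the tested genes, and held 7 ATGs. Of these 7, 2 lay in the same frame, of 63 codons from the first ATG and 50 from the next, which overlapped the coding start. ATF5 had 1 frame of 3 codons followed by 1 of 59 codons that overlapped its start, and DDIT3 had a frame inside its leader with 2 ATGs, of 34 and 31 codons to the same stop, and a frame of 73 codons that overlapped the start. CHAC1 and PCK2 had no upstream ATG, in leaders of 20 and 268 bases.

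**Figure D1:**
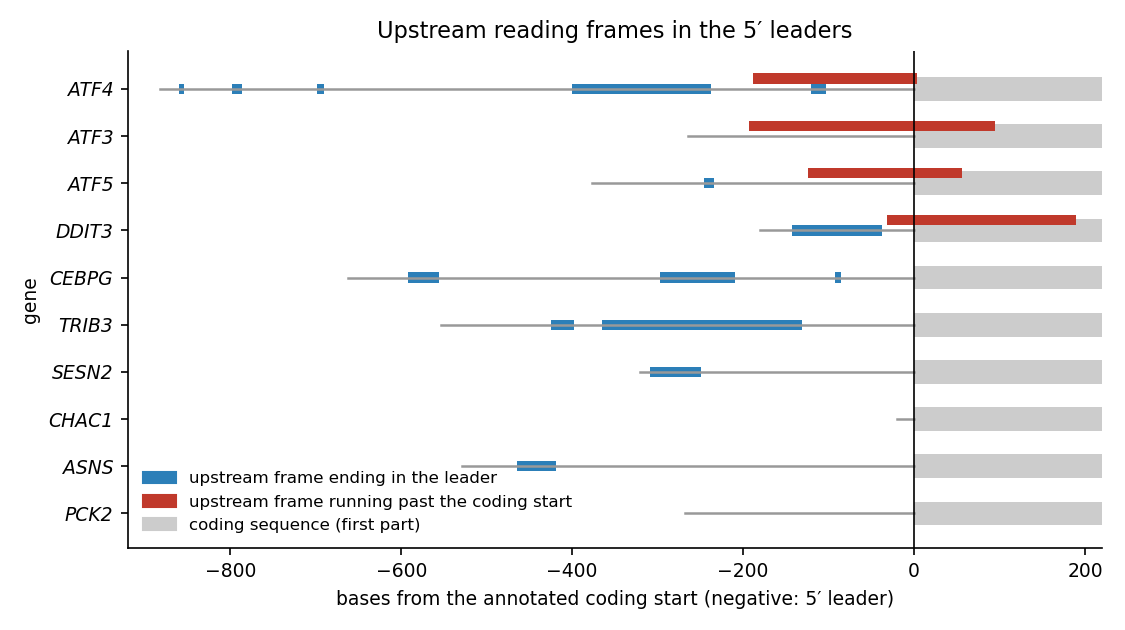
Upstream reading frames in the 5′ leader of 1 reference transcript per gene, with the distance in bases from the annotated coding start on the horizontal axis and the 10 genes as rows. Grey lines are leaders, blue bars frames that end in the leader and red bars frames that run past the coding start; red bars occur in ATF4, ATF3, ATF5 and DDIT3.

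The libraries held between 13057534 and 16995452 counted reads. NUF2 was read 903, 1096 and 1092 times in the shNC libraries and 281, 290 and 384 times in the shNUF2 libraries, a mean of 65.2 and 22.9 CPM, so NUF2 was in the direction of the hairpin labels. CPM is the read count relative to the library size after TMM scaling, and log2 fold changes are shNUF2 minus shNC with their standard error (SE). Of 9 markers of the ovarian epithelial line, 7 were above 1 CPM in all 6 libraries. WT1 was close to absent, at no more than 1 read in any shNC library and 7, 1 and 0 reads with shNUF2, and CDH1, with 9 to 33 reads, did not stay above 1 CPM. EPCAM was low as well, with 44 to 91 reads, and whether the line matches its label was not tested. The summed CPM of 4 immune markers was 0 to 0.25 with shNC and 1.19 to 1.54 with shNUF2, that of 5 fibroblast markers 84.0 to 90.5 and 68.6 to 75.2, and that of 3 endothelial markers 1.75 to 3.38 and 3.41 to 4.92. Of these, 0 of the 4 immune, 2 of the 5 fibroblast and 1 of the 3 endothelial markers stayed above 1 CPM, and the part of these genes in the results was not tested.

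The mRNA of 7 of the 10 genes lay lower in every shNUF2 library than in every shNC library, ATF3 lay higher, and ATF5 and DDIT3 overlapped. The lower genes ranged from TRIB3, at 1.48-fold, to ASNS, which was nearly lost. Over all genes tested, 35.4% lay lower without overlap and 35.2% higher. A log2 fold change below -1 was seen for 4 genes (CEBPG, PCK2, CHAC1 and ASNS) and one above 1 for ATF3, where 4.16% of all genes were called lower and 9.41% higher by this size with an unadjusted p under 0.05. By the adjusted p at any size, 33.8% of all genes were lower and 33.9% higher. The 10 genes were picked on this contrast, so nothing is read from their counts against these shares. Their median log2 fold change was -0.72, and that of all genes tested was -0.01. In bulk RNA, fewer cells that express a gene and less RNA per cell cannot be told apart.

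**Figure D2:**
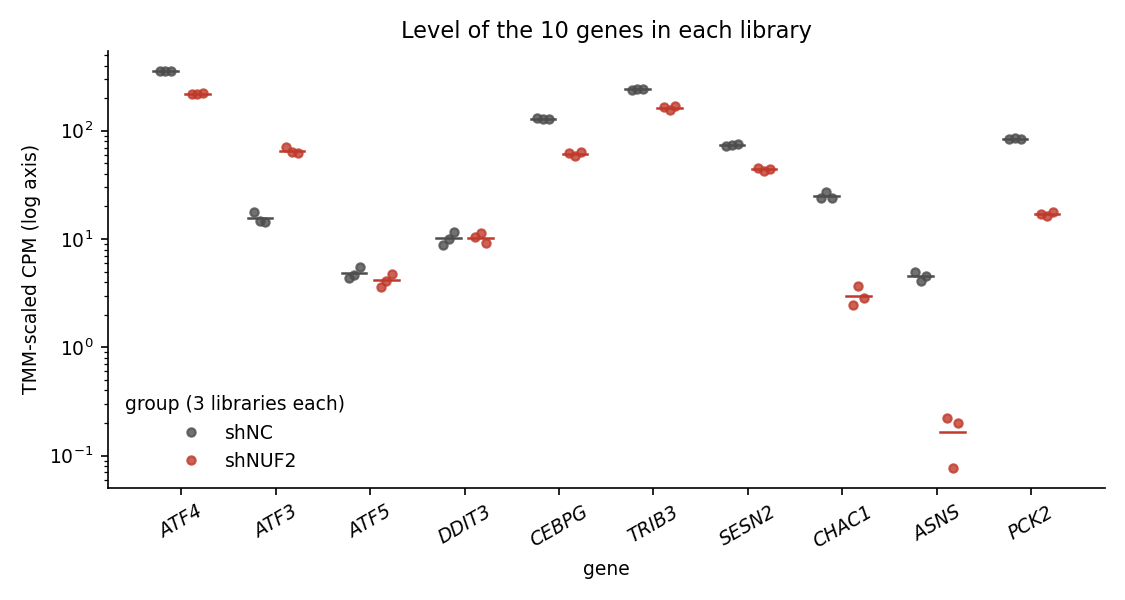
Level of each of the 10 genes in TMM-scaled CPM on a log axis, with 3 shNC libraries in grey and 3 shNUF2 libraries in red; horizontal lines are group means. ASNS, CHAC1 and PCK2 were far lower in the shNUF2 libraries, ATF3 was higher, and the groups overlap for ATF5 and DDIT3.

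ATF4 is the central effector of the response. Its gene, ENSG00000128272, lies on the plus strand of chromosome 22 at chr22:39519672-39522683. It was read 5022, 5734 and 6134 times in the shNC libraries and 2924, 2810 and 3362 times in the shNUF2 libraries. These are 356 ± 2.79 CPM and 219 ± 4.04 CPM (SD, n = 3), a log2 fold change of -0.70 (SE 0.04) or 1.63-fold lower. The spread within each group was small beside this difference, with coefficients of variation of 0.784% and 1.85%. ATF4 stayed a highly expressed gene in both groups, at percentile 98.4 and 96.5 of the FPKM values (reads scaled by gene length and library total) of the tested genes. The annotation holds 4 pseudogenes named after ATF4, and how reads shared with such copies were counted is not given in the sources used here.

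CEBPG, which pairs with ATF4 on the response element, lay lower by more than ATF4 did. This gene, ENSG00000153879 at chr19:33373685-33382686 on the plus strand, was read 1850, 2041 and 2213 times with shNC and 836, 763 and 951 times with shNUF2. Its level was 129 ± 1.22 CPM against 61.3 ± 2.34 CPM (SD, n = 3), a log2 fold change of -1.07 (SE 0.05). Per kilobase, CEBPG stood at 26.0% of the FPKM of ATF4 in the shNC libraries and at 20.1% in the shNUF2 libraries, without overlap.

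ATF3, a stress-induced repressor and activator that is itself a known ATF4 target, was the single gene of the 10 that lay higher. This gene, ENSG00000162772 at chr1:212565334-212620777 on the plus strand, was read 254, 235 and 247 times with shNC and 950, 825 and 937 times with shNUF2. The means were 15.6 ± 1.93 CPM and 65.4 ± 4.42 CPM (SD, n = 3), 4.18-fold higher with a log2 fold change of 2.07 (SE 0.09). The shNUF2 libraries held 62.3 to 70.5 CPM and the shNC libraries 14.4 to 17.9 CPM, so the groups lay far apart. Relative to ATF4 in the same library, ATF3 FPKM went from between 2.90% and 3.64% to between 20.1% and 23.4%.

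ATF5, an ATF4 relative linked to mitochondrial stress, was a low gene in both groups. It was read 62, 75 and 95 times with shNC and 49, 53 and 72 times with shNUF2. The log2 fold change of -0.22 had an SE of 0.20, and the groups overlapped between 4.36 and 4.79 CPM. ATF5, ENSG00000169136 at chr19:49928702-49933935, overlaps NUP62 and IL4I1 on the opposite strand. Whether the counting used the strand is not given in the sources used here, so its reads may include those of its neighbours.

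DDIT3 encodes CHOP, the factor that drives cell death in prolonged stress. It was read 126, 161 and 201 times with shNC and 140, 147 and 137 times with shNUF2. The means were 10.2 ± 1.41 CPM and 10.3 ± 1.10 CPM (SD, n = 3), and the shNUF2 libraries fell inside the range of the shNC libraries. The log2 fold change was -0.00 with an SE of 0.14, and its sign depended on the library left out, from -0.09 to 0.10. DDIT3, ENSG00000175197 at chr12:57516588-57521737 on the minus strand, overlaps MARS and MBD6 on the opposite strand, with the same limit as for ATF5, and the coding gene AC022506.1 on its own strand, where the strand would not separate the reads. MARS, listed as MARS1 and named here for this overlap after its values were seen, had 325 CPM with shNC and 90.8 CPM with shNUF2, and its part in the DDIT3 reads was not tested. DDIT3 stood at 6.38% of the ATF4 FPKM with shNC and at 10.5% with shNUF2, without overlap, since ATF4 is the divisor and was lower.

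TRIB3, a pseudokinase that is induced by ATF4 and DDIT3 and holds ATF4 in check, differed least among the 7 lower genes. This gene, ENSG00000101255 at chr20:362835-397559, was read 3407, 3891 and 4140 times with shNC and 2242, 2013 and 2544 times with shNUF2. Its mean was 241 ± 1.98 CPM against 164 ± 7.56 CPM (SD, n = 3), with a log2 fold change of -0.56 (SE 0.05). TRIB3 was the gene nearest to ATF4 in level, at 65.1% and 71.7% of its FPKM in the shNC and shNUF2 libraries.

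SESN2, a stress-induced protein that restrains mTORC1 when leucine is short, lay lower by about as much as ATF4. This gene, ENSG00000130766 at chr1:28259518-28282491, was read 1038, 1188 and 1301 times with shNC and 614, 553 and 673 times with shNUF2. The level was 74.3 ± 1.31 CPM and 44.3 ± 1.56 CPM (SD, n = 3), and the log2 fold change was -0.75 (SE 0.06). Relative to ATF4 its FPKM was 17.4% to 17.8% in the shNC libraries and 16.6% to 17.7% in the shNUF2 libraries. These ranges overlap, and SESN2 was the 1 gene of the other 9 for which the ratio to ATF4 did so. ATF4 is the divisor and was lower with little spread, so a gene with no difference of its own can separate by this ratio. The share of all genes that separate in this way was not computed, so nothing is read from this count.

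CHAC1 degrades glutathione and is among the genes most tightly tied to ATF4 activity. This gene, ENSG00000128965 at chr15:40952962-40956512, was read 342, 431 and 415 times with shNC and only 33, 48 and 43 times with shNUF2. The means of 25.1 ± 1.66 CPM and 3.00 ± 0.634 CPM (SD, n = 3) differ 8.35-fold, with a log2 fold change of -3.06 (SE 0.15). It was number 10 from the bottom when the 12874 genes tested were ordered by log2 fold change. Its share of the ATF4 FPKM went from 9.98% to 1.95%.

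PCK2, the mitochondrial enzyme that makes phosphoenolpyruvate from oxaloacetate, lay between these groups. This gene, ENSG00000100889 at chr14:24094053-24110598, was read 1201, 1357 and 1436 times with shNC and 232, 212 and 268 times with shNUF2. The level was 84.3 ± 0.739 CPM against 17.1 ± 0.759 CPM (SD, n = 3), 4.93-fold lower with a log2 fold change of -2.30 (SE 0.07). It was number 30 from the bottom of the same order, and its share of the ATF4 FPKM went from 16.5% to 5.45%. PCK2 overlaps NRL on the opposite strand.

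ASNS encodes asparagine synthetase, which makes asparagine from aspartate and glutamine and is the classic gene of the amino acid response. This gene, ENSG00000070669 at chr7:97851677-97872542 on the minus strand, had 3, 1 and 3 counted reads in the shNUF2 libraries, where the shNC libraries had 71, 66 and 79. Its log2 fold change of -4.69 (SE 0.40) was the lowest of the 12874 genes tested, a rank that rests on these few shNUF2 reads. ASNS passed the read filter through its shNC libraries alone. SVOPL, at -4.09 (SE 0.48), and HGD, at -3.88 (SE 0.25), were not separated from ASNS by these errors. Summed over libraries, 7 reads stood against 216, which is 27.0-fold lower for equal library size, with an exact 95% counting interval of 12.9 to 68.0 that covers counting error only. The depth of the shNUF2 libraries therefore sets the size only within this interval. ASNS was already a weak gene in the control line, with 4.57 ± 0.432 CPM (SD, n = 3) and a percentile of 16.4 among the FPKM values of tested genes. With shNUF2 it had 0.0769 to 0.223 CPM, below the summed level of the 4 immune markers in those libraries, whose part was not tested. ASNS overlaps the processed transcript AC079781.5 on its own strand and the pseudogene AC005326.1 on the opposite strand, and 4 annotated pseudogenes are named after it. How reads shared with these were counted is not given in the sources used here, so its level is uncertain in both groups.

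Compared per kilobase, ATF4 and TRIB3 led the order in both groups, and the order below them differed. In the shNC libraries the mean FPKM descended from ATF4 (124) through TRIB3 (80.6), CEBPG (32.2), SESN2 (21.7), PCK2 (20.4), CHAC1 (12.4), DDIT3 (7.91), ATF3 (3.92) and ATF5 (1.70) to ASNS (0.945), and no neighbours in this order overlapped. In the shNUF2 libraries it descended from ATF4 (74.2) through TRIB3 (53.2), ATF3 (16.0), CEBPG (14.9), SESN2 (12.6), DDIT3 (7.75), PCK2 (4.04), CHAC1 (1.45) and ATF5 (1.42) to ASNS (0.0334). ATF3 thus stood among the 3 genes of highest level with shNUF2, although it could not be separated from CEBPG, and CHAC1 could not be separated from ATF5.

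**Figure D3:**
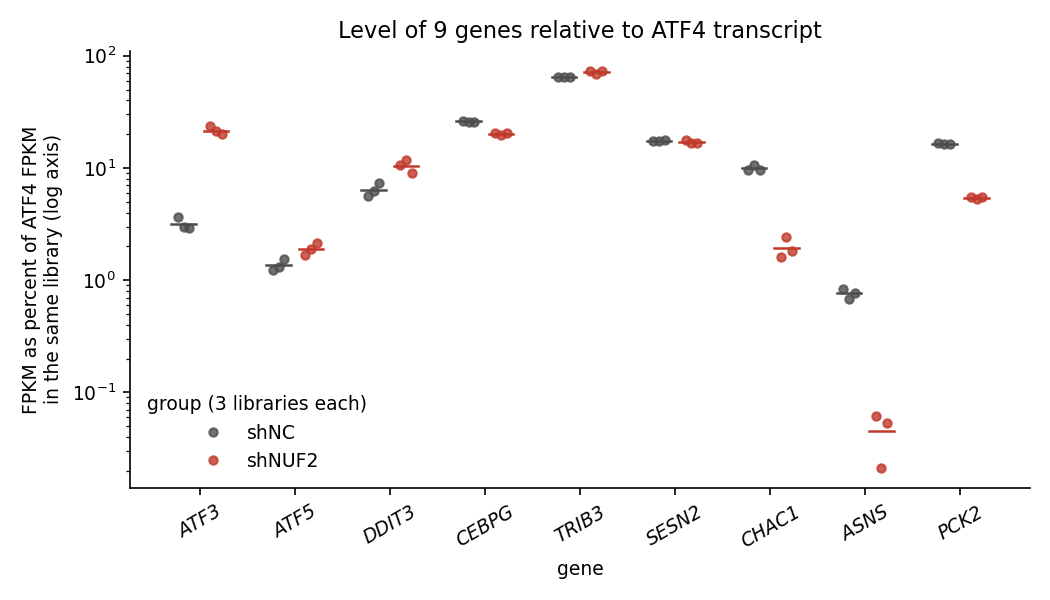
FPKM of 9 genes as a percentage of the ATF4 FPKM in the same library, on a log axis, for 3 shNC libraries (grey) and 3 shNUF2 libraries (red) with group means as lines. ASNS, CHAC1, PCK2 and CEBPG were lower relative to ATF4 with shNUF2, ATF3, ATF5, DDIT3 and TRIB3 were higher, and SESN2 overlapped. ATF4, the divisor, was itself lower with shNUF2.

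The genes whose pattern was nearest to 3 of the 10 were found by the distance in log2 CPM over the 6 libraries, with the mean of the shNC libraries set to 0. Nearest to ASNS were MAP2K6 (a MAP kinase kinase of the p38 branch, log2 fold change -3.61), SVOPL (-4.09), HGD (-3.88), SLC6A9 (a glycine transporter, -3.25) and ALPI (-3.14). Nearest to ATF4 were TLL1, CYB5B, GTPBP3, FASN and PDE3A, with log2 fold changes from -0.71 to -0.68. Nearest to ATF3 were LAMB3 (a laminin chain, 2.03), JUN (an AP-1 factor, 2.03), FNDC11 (2.15), AKAP12 (1.99) and LOX (1.99). The distances were 0.99 to 1.56 for the neighbours of ASNS, 0.05 to 0.06 for those of ATF4 and 0.11 to 0.18 for those of ATF3. The distances are not compared between the 3 genes, since ASNS had 1 to 3 reads in each shNUF2 library.

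The other genes of the pathway were read from 10 lists with 138 genes, of which 134 were tested with edgeR's quasi-likelihood test, with p adjusted over all 12874 genes. Of these 134, 24 were lower and 9 higher beyond a log2 fold change of 1, and 73 were lower and 40 higher at any size with an adjusted p under 0.05. At any size, 33.8% of all genes were lower and 33.9% higher, and the shares of the lists below are to be read beside these. Beyond 1, 17.9% of the 134 were lower and 6.72% higher, beside 4.16% and 9.41% of all genes. Of the 24 lower genes 20 belong to the list of ATF4 targets, whose direction was known when it was written, so nothing is read from this excess. The other lists were also written with earlier results of these data known. Their counts and p-values below are therefore a description and not independent tests. The median log2 fold change of the 134 pathway genes was -0.29.

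Upstream of ATF4, mRNAs of 3 of the 4 eIF2α kinases fell and 1 rose, where 33.8% of all genes fell and 33.9% rose at any size. EIF2AK2 (PKR, the sensor of double-stranded RNA) fell by 0.52 on the log2 scale (SE 0.05, edgeR adjusted p = 1.7e-09), EIF2AK1 (HRI, the heme sensor) by 0.50 (adjusted p = 3.8e-10) and EIF2AK4 (GCN2, the sensor of uncharged tRNA) by 0.35 (adjusted p = 8.1e-06). EIF2AK3 (PERK, the kinase of the endoplasmic reticulum) rose by 0.54 (SE 0.10, edgeR adjusted p = 1.8e-05), from 279, 361 and 391 reads in the shNC libraries to 479, 405 and 425 in the shNUF2 libraries. Among the 8 subunits of eIF2 and its exchange factor eIF2B, 4 fell and 0 rose, all by less than a log2 fold change of 1, and 4 of 8 is not far from the 33.8% of all genes that fell. All 3 eIF2 subunits were among these 4, led by EIF2S2, which fell by 0.57, and the fourth was EIF2B3, which fell by 0.31.

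PPP1R15A (GADD34, the stress-induced subunit of the phosphatase that reverses eIF2α phosphorylation) rose by 1.76 on the log2 scale (SE 0.06, edgeR adjusted p = 8.7e-20), from 62.5 CPM to 212 CPM. PPP1R15B (the constitutive subunit) fell by 0.52 (edgeR adjusted p = 8.7e-11). DELE1 and OMA1, which relay mitochondrial stress to HRI, fell by 0.89 and 0.88, and IMPACT, an inhibitor of GCN2, fell by 0.58. DNAJC3 (P58IPK), an inhibitor of PERK and PKR, rose by 0.86. In this list of 10 genes, 4 rose and 4 fell at any size, near the 33.9% and 33.8% of all genes, and the remaining 2, GCN1 and PPP1CB, did not pass the test.

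Of 21 other bZIP factors tested, 9 fell and 8 rose at any size, near the 33.8% and 33.9% of all genes, and the median log2 fold change was 0.07. CEBPA and JDP2 fell by 1.43 and 1.32 on the log2 scale (edgeR adjusted p = 1.6e-09 and 4.7e-11), and CREB3L1 rose by 2.19 from a low level of 0.808 CPM (adjusted p = 1.3e-06). CEBPB, another partner of ATF4, rose by 0.53, with 144, 139 and 212 CPM in the control libraries and 270, 228 and 219 CPM after knockdown, so that 1 control library came close to the other group. Of 7 paralogs of the effectors, 2 rose and 2 fell at any size, no larger a share than the 33.9% and 33.8% of all genes. Beyond a log2 fold change of 1, 2 of the 7 rose (28.6%) and 0 fell, beside 9.41% and 4.16% of all genes. TRIB1 rose by 1.77 (edgeR adjusted p = 1.1e-18) and TRIB2, with 0 to 4 reads with shNC and 12 to 24 with shNUF2, by 3.12 (adjusted p = 0.00012), where TRIB3 lay lower. PCK1 fell by 0.94 and CHAC2 by 0.40, while SESN1, SESN3 and ASNSD1 had log2 fold changes of 0.23, -0.17 and -0.24 that did not pass the test.

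Downstream of ATF4, the amino acid response targets were lower, a direction that was known when the list was written. Of 34 tested, 20 fell beyond a log2 fold change of 1 and 0 rose as far, and at any size 27 fell and 6 rose. Over all genes tested, 4.16% fell and 9.41% rose beyond 1, and 33.8% fell and 33.9% rose at any size. The median was -1.17, against -0.01 for all genes. The lowest were SLC6A9, at -3.25 (glycine transport), CBS, at -2.69 (transsulfuration), PSAT1, at -2.66 (serine synthesis), and ALDH1L2, at -2.55 (mitochondrial folate). Their edgeR adjusted p-values were 1.3e-21, 1.6e-13, 8.5e-24 and 6.7e-22. The reads of PSAT1 were 2904, 3525 and 3608 with shNC and 459, 444 and 481 with shNUF2. The 6 that rose did so by 0.76 or less and included MAP1LC3B and SQSTM1 (autophagy), GDF15 (a stress cytokine) and KLHL24. FGF21 and NUPR1, with 0 to 8 reads a library, were too low to be tested. The response element was found before a start of 5 of the 27 target genes in the promoter table: AARS1, FGF21, GARS1, JDP2 and SLC1A5. Of all 27305 genes in that table, 3.89% held it before a start, and of the 10297 tested genes among them 2.47% did.

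The enzymes and transporters of the asparagine, aspartate and glutamine list were also mostly lower. Of 19 tested, 13 fell and 3 rose at any size, and 3 fell and 1 rose beyond a log2 fold change of 1, with a median of -0.47. The shares of all genes were 33.8% and 33.9% at any size and 4.16% and 9.41% beyond 1. ASS1, which joins aspartate to citrulline, fell by 2.05 (edgeR adjusted p = 4.4e-24), from 2824 CPM to 683 CPM. ADSS1, which uses aspartate to make AMP, fell by 1.13, and GOT1, the cytosolic aspartate aminotransferase, fell by 1.06. SLC1A3, an aspartate and glutamate importer, rose by 3.44 (SE 0.19, edgeR adjusted p = 1.4e-14), from 25, 31 and 16 reads in the shNC libraries to 221, 229 and 241 in the shNUF2 libraries. GLUL, which makes glutamine, rose by 0.17.

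Of 6 genes listed as DDIT3 and terminal stress targets, 5 rose and 0 fell at any size, and 3 rose beyond a log2 fold change of 1: ERO1A (disulfide formation) by 1.69, GADD45A by 1.62 and GADD45B by 1.13, with edgeR adjusted p-values of 6.7e-19, 2e-18 and 7.8e-14. Of all genes, 33.9% rose and 33.8% fell at any size, and 9.41% rose beyond 1. TNFRSF10B (the death receptor DR5) rose by 0.37 and BBC3 (PUMA) by 0.34, whereas BCL2L11 (BIM), at -0.01, did not pass the test. DDIT3 itself had overlapping groups, as given above. Of 16 chaperones and regulators of the ATF6 and XBP1 branches, 11 rose and 3 fell at any size, beside the same shares of all genes, with a median of 0.39. CALR, a calcium-binding chaperone, rose by 1.15 (edgeR adjusted p = 1.7e-18), CRELD2 by 0.97, SDF2L1 by 0.83 and MANF by 0.68, while XBP1, EDEM1 and HYOU1 fell by 0.42, 0.29 and 0.13. Of 10 mitochondrial chaperones and proteases, 9 fell and 0 rose at any size, beside 33.8% and 33.9% of all genes, from TRAP1, which fell by 0.78, to YME1L1, which fell by 0.14; HSPE1, at -0.28, did not pass the test.

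**Figure D4:**
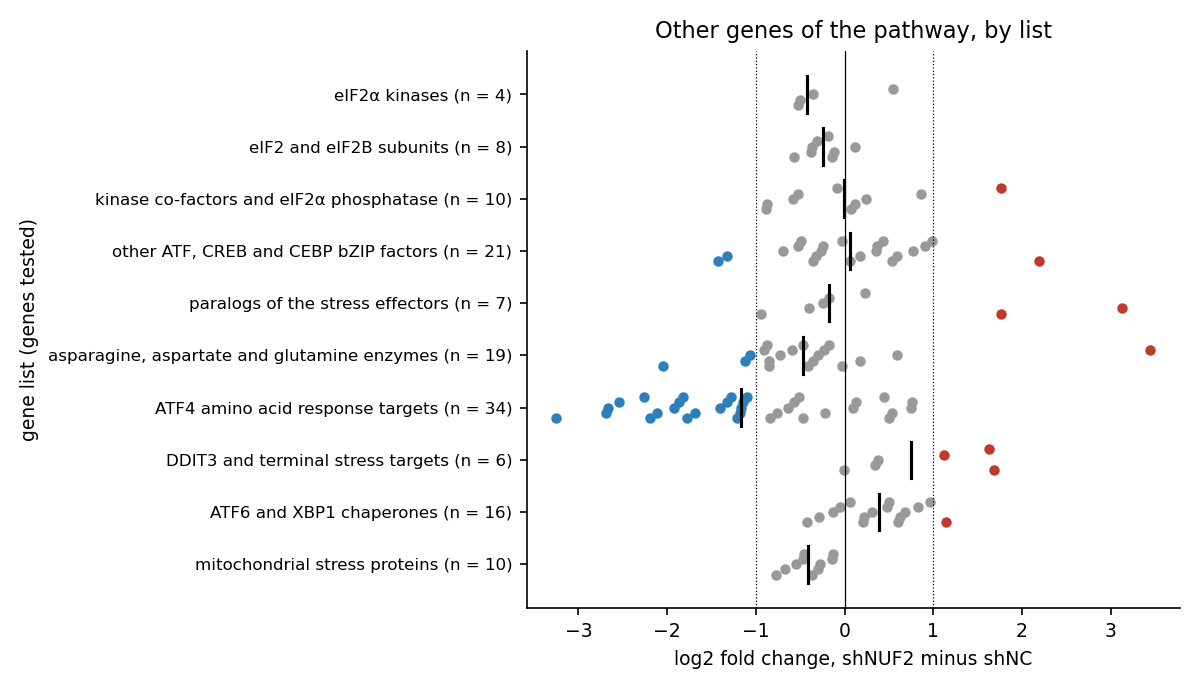
Log2 fold change (shNUF2 minus shNC) of the tested genes of 10 pathway lists, 1 point per gene, with black bars at the list medians and dotted lines at -1 and 1. Blue points were called lower and red points higher beyond these lines with an unadjusted p under 0.05. Of the 34 ATF4 targets, whose direction was known when they were listed, 20 are blue, beside 4.16% of all genes. The median of the 6 DDIT3 and terminal stress targets is 0.75.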

How the data were processed

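The authors sequenced TruSeq Stranded mRNA libraries of OVCAR3 cells on the NovaSeq 6000 and deposited, for each library, read counts per gene and the FPKM made from them. The submitters' processing notes name cutadapt, HISAT, HTSeq and GRCh38.p13 without tool versions, and the strand setting is not given in the sources used here. Deposited counts were tested with edgeR 4.0.16 in R 4.3.3 (filterByExpr, TMM, quasi-likelihood test, no covariate). A gene was called at a log2 fold change beyond 1 with an unadjusted p under 0.05, or at any size with a Benjamini-Hochberg adjusted p under 0.05 over all genes tested. SE was derived from the log2 fold change and its F statistic (their quotient, after taking the root of F). The biological coefficient of variation was 4.93%. On simulated counts of 12796 tested genes, 199 of 200 genes changed by 1.5 on the log2 scale were recovered. The simulation gave every gene the same dispersion, so it does not show recovery for genes with a larger spread. Deposited FPKM served for levels between genes. The 10 genes and the lists were chosen with earlier results of these data known. All genes of lists of up to 10 were eligible for naming; of longer lists, up to 4 called in each direction and genes near 0 reads; for ASNS, ATF4 and ATF3 the 5 nearest genes. Replicate numbers did not pair the libraries (deviations from the group means correlated at 0.02, 0.0046 and -0.03 between libraries of the same number). Leaders came from 1 APPRIS principal transcript per gene of GENCODE release 29. Alternatives were DESeq2 1.42.0, other scalings and filters, a replicate block, the TREAT test, adjusted p and each library left out. Figures were drawn with matplotlib in Python 3.11.15. A gene that this rule would name is not reported here.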

Additional observations from a re-analysis of the deposited data

How the results depend on the processing

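With at least 1 CPM required in every library, 756 genes were higher with shNUF2 instead of 1212 (1770 with no filter and 1603 with the DESeq2 Wald test), and ASNS was removed, so that 3 of the 10 genes, not 4, lay lower beyond a log2 fold change of 1. With the TREAT test of a change beyond 1, 329 genes were lower instead of 536. The log2 fold change of ATF4 was -0.74 with library totals only, -0.73 with no filter and -0.68 with at least 1 CPM in every library, against -0.70. Over 12 alternatives ASNS, where it was kept, ranged from -4.92 to -4.39 and ATF3 from 2.00 to 2.16; of the 10 genes, DDIT3 alone changed sign, from -0.09 to 0.10. The replicate block gave 1207 genes higher and 536 lower, of which 1205 and 532 were shared with the fit without it, and left 24 pathway genes lower and 9 higher. In all, 5 values moved by more than 1.5 times (counts) or by more than the spread between libraries (fold changes), and 222 moved by less. Depth limits the size of the ASNS difference, since the shNUF2 libraries held 1 to 3 of its reads; shared reads were not measured.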
